A study of Mus musculus with 18 samples.

Results

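The 39 contractile and actin cytoskeleton genes described here encode smooth muscle actins, myosin chains, tropomyosins, actin-binding and crosslinking proteins, and a few of their regulators, and they were picked by gene symbol. A probe set carrying only that symbol in the array annotation was found for 38 of them, among 18194 genes measured in this way. Each gene was read from its brightest probe set by the mean over the 18 arrays, and dimmer probe sets were added where that mean lay near the top of the scale. To be tested, a probe set had to exceed the 40th percentile of its array 3 times or more. Of the 38 genes 37 passed, among 13679 genes tested, and those 37 lay above that percentile on all 18 arrays. Myocd, the smooth muscle coactivator myocardin, lay above it on 0 arrays, and Rock2 had no probe set named for it alone.

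Fibroblasts exposed to TGF-β can turn into myofibroblasts, cells that build thick actin and myosin stress fibres and make smooth muscle proteins such as α-smooth muscle actin, transgelin and calponin. TGF-β reaches these genes through Smad proteins and through actin itself: when it polymerises, myocardin-related cofactors are freed and join serum response factor (SRF) at CArG boxes, the DNA elements found near many contractile genes. NFI-C is a DNA-binding transcription factor of the nuclear factor I family.

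The cells were primary fibroblasts of embryos aged 14 days, taken without head and liver, from 3 embryos labelled NFI-C knock-out (KO) and 3 wild-type (WT) embryos. KO-labelled cells were left untreated or given 12.5 ng/ml TGF-β1 for 1 h or 10 h, and wild-type cells were handled in the same way. Each of the 6 groups held 3 arrays, 1 per embryo, so every embryo supplied 3 arrays that are not independent. All cultures had stood for 4 to 6 h in medium with 1% of an albumin supplement and 1% of an insulin, transferrin and selenium mix before treatment. The labels also list 10% serum for the cultures, the same in all 6 groups. Going by the labels, no culture without TGF-β1 was kept to the 10 h point, so time in that medium and TGF-β1 cannot be told apart at 10 h. The labels do not state which part of Nfic is deleted, nor the strain.

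Values are log2 levels of Affymetrix probe sets, so a difference of 1 is a 2-fold change. Array medians lay between 4.74 and 4.81, and arrays of the same group correlated at 0.987 to 0.995 over all probe sets. Read from its brightest probe set, Nfic itself did not pass as lower on the KO-labelled arrays. Its brightest probe set ranged from 9.89 to 10.72 on the KO-labelled arrays and from 10.19 to 10.77 on the wild-type arrays, with KO minus WT differences of −0.10, −0.02 and −0.09 (SE 0.16 each) in untreated, 1 h and 10 h cells. Whether this probe set lies outside the deleted part is not given, so it does not check the labels. Of 12 fibroblast markers all were seen above the 40th percentile, with Col1a2 at 13.90 to 14.18. The 14 macrophage and leukocyte markers were also seen there. Their summed linear level was 14394 to 33687 at 10 h against 14978 to 37815 untreated in KO-labelled cells, and 16084 to 45518 against 20298 to 50213 in wild-type cells, so these ranges overlapped.

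After 10 h of TGF-β1, a similar number of contractile genes rose in cells of both genotypes and none passed as lower. In KO-labelled cells 19 of the 37 tested genes rose, where 13.9% of all tested genes rose, and 0 fell, where 20.7% of all fell (limma, Benjamini-Hochberg adjusted p under 0.05). In wild-type cells 17 rose, where 14.9% of all rose, and 0 fell, where 18.8% of all fell. The median log2 change of the 37 genes was 0.30 in KO-labelled and 0.28 in wild-type cells, against −0.03 and 0.01 over all tested genes. Of the genes that rose, 9 in KO-labelled cells and 7 in wild-type cells did so by at least 1.5-fold, and 3 and 4 by at least 2-fold. These sizes were not counted over all tested genes, so they are not read as particular to the members. In bulk RNA of this kind, more cells of a type and more RNA per cell cannot be told apart.

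Most of the genes that rose did so in both genotypes. This overlap was not counted over all tested genes, so it is not read as particular to the members. A set of 16 passed in both, Actg2, Myh11 and Tpm1 passed only in KO-labelled cells, Des passed only in wild-type cells, and 17 passed in neither; for none of these 4 did the difference between the genotypes pass its own test. Within single embryos, 28 of the 37 genes were higher at 10 h than untreated in each of the 3 KO-labelled embryos and 22 in each of the 3 wild-type embryos, where 27% and 29% of all tested genes were. With the 3 arrays of an embryo treated as a block, 20 genes passed as higher and 2 as lower in each genotype, where 16% and 24.2% of all tested genes did in KO-labelled cells and 17.5% and 22.6% in wild-type cells. With embryo as a random block 21 were higher and 2 lower in KO-labelled cells (16.1% and 23.5% of all), and 20 higher and 0 lower in wild-type cells (17.8% and 22% of all). The 10 h and untreated arrays of wild-type embryos 2 and 3 did not deviate together (correlations of −0.06 and −0.20), so whether their numbers pair these arrays is uncertain, and with it the wild-type values within embryos and under the block.

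**Figure D1:**
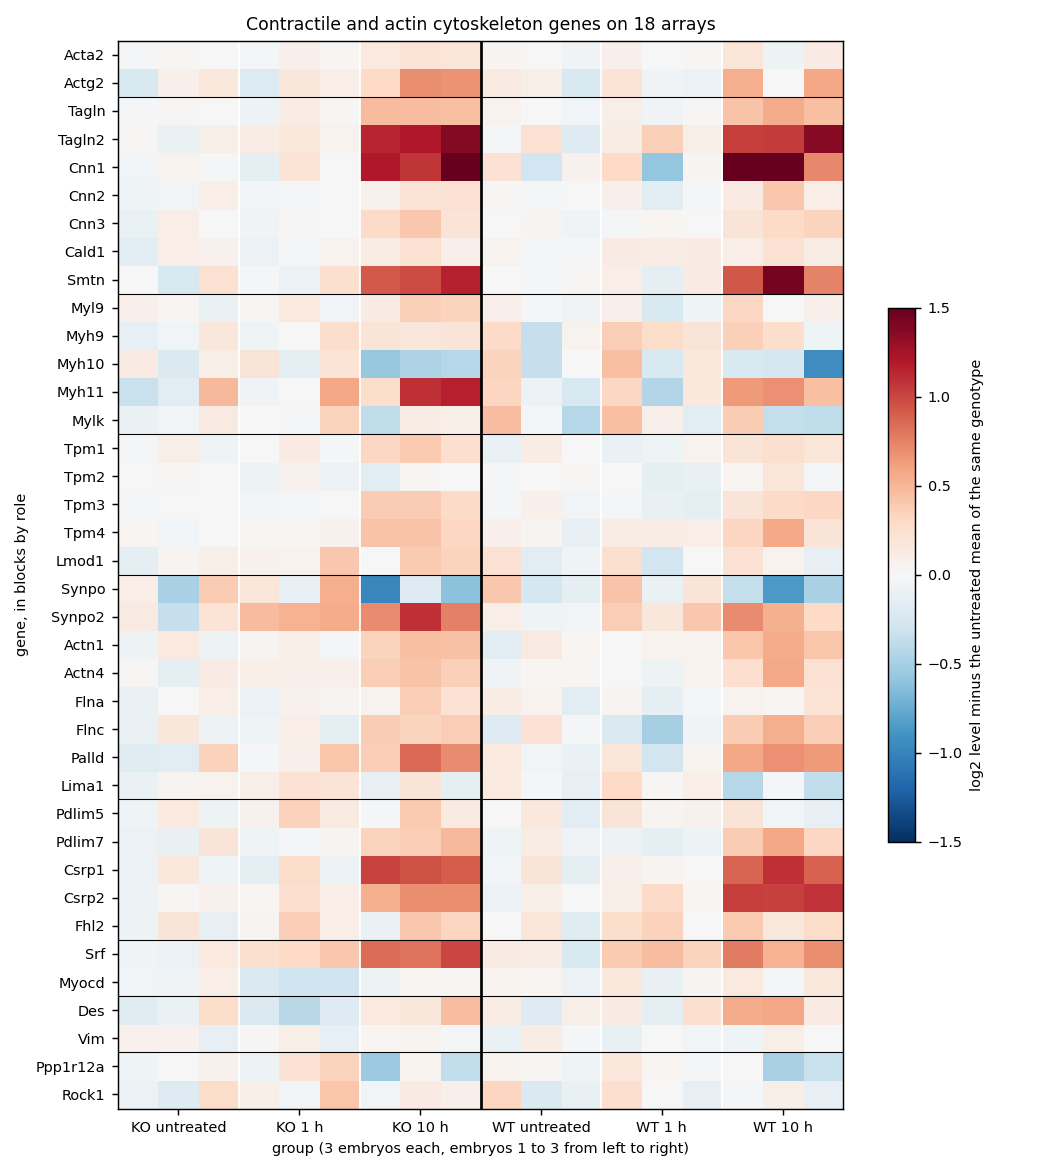
Log2 level of each gene on each of the 18 arrays minus the mean of the untreated arrays of the same genotype (colour, from −1.5 in blue to 1.5 in red), with genes in rows grouped by role and KO-labelled arrays left of wild-type arrays. The 10 h columns of both genotypes are strongly red for Tagln2, Cnn1, Smtn and Csrp1. On average Csrp2 is redder in wild-type 10 h columns, and Srf, Synpo2 and Myh11 are redder in KO-labelled ones. The 1 h columns are pale for most genes, and Synpo and Myh10 are blue at 10 h.

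Among the regulators of transcription, Srf encodes serum response factor, which binds CArG boxes. In KO-labelled embryos 1, 2 and 3 the Srf level was 7.84, 7.80 and 8.05 untreated, 8.14, 8.20 and 8.30 at 1 h, and 8.73, 8.71 and 8.90 at 10 h. The wild-type values were 8.04, 8.02 and 7.69 untreated, 8.31, 8.38 and 8.25 at 1 h, and 8.70, 8.44 and 8.62 at 10 h. In both genotypes the 3 groups lay one above the other without overlap, in the order untreated, 1 h and 10 h. At 10 h the log2 change over untreated was 0.88 ± 0.11 (SE) in KO-labelled cells (1.85-fold, adjusted p = 1.4e-05) and 0.67 ± 0.11 in wild-type cells (1.59-fold, adjusted p = 2.0e-04). At 1 h it was 0.31 ± 0.11 (adjusted p = 0.617) and 0.40 ± 0.11 (adjusted p = 0.194), which did not pass. From 1 h to 10 h Srf rose in KO-labelled cells by 0.57 (adjusted p = 7.4e-04), while the 0.27 in wild-type cells did not pass (adjusted p = 0.0658, or 0.0385 with embryo as a block). The second, dimmer Srf probe set was 0.53 and 0.62 higher at 10 h in KO-labelled and wild-type cells, and passed in both, but stood at −0.06 and −0.10 at 1 h, so the 1 h step was seen with 1 of 2 probe sets. Myocd stayed between 3.48 and 3.88 on all arrays, below the 40th percentile of every array (4.16 to 4.25), and was not tested.

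Promoters were set beside these values because SRF is itself a member and its binding element can be read from sequence. RefSeq promoters of 300 bases, 250 before and 50 after the start of the gene on GRCm38.p6, were found for 32 of the 39 genes. A CArG box, searched on both strands, was present in promoters of 5 of these 32 genes (Srf, Fhl2, Cnn2, Myl9 and Lima1), or in 15% of their 40 promoters against 1.63% of all 32851 promoters in the table. Of the 16 genes with a promoter that rose at 10 h in either genotype 1 held such a box, and of the 15 tested genes that did not pass 4 did. Actg2, Tagln, Myh11 and Csrp2 also rose in KO-labelled cells, but had no promoter entry and were not searched. Synpo and Rock1, which did not pass, had none either. The split therefore does not show whether boxes go with the rise. The letters GTCTAGAC, a palindromic Smad element, were in 0 of the 40 promoters and in 0.213% of all, and CAGAC, the short Smad element, was in 45% of the 40 and in 49.6% of all, both searched on both strands. Srf and Myl9 are shown as members named here whatever their test that hold a box, Srf with a rise and Myl9 without a pass. Acta2, shown because it is the usual myofibroblast marker, was added after its values were seen; it holds no full box but a pair of boxes with 1 G or C in the A/T core, a form present in 12.5% of the members' promoters and in 8.5% of all. Capitals mark the boxes of either form. Full boxes lie 82 to 73 and 62 to 53 bases upstream of the start in Srf (minus strand, chr17:46556113-46556412) and 161 to 152 bases upstream in Myl9 (plus strand, chr2:156775214-156775513). The form with 1 G or C lies 99 to 90 bases upstream in Myl9, and 84 to 75 and 34 to 25 bases upstream in Acta2 (minus strand, chr19:34255324-34255623).
Srf: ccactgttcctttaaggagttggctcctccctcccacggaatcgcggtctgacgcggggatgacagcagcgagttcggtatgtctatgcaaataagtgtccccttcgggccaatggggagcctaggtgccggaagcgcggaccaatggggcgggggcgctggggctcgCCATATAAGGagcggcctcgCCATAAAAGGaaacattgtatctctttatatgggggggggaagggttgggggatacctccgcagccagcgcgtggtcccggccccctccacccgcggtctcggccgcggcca
Myl9: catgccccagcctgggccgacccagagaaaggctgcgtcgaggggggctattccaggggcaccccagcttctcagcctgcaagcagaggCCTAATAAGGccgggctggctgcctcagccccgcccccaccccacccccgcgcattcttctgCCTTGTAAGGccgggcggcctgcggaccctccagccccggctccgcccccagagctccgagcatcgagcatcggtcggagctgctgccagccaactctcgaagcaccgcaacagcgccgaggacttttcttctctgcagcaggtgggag
Acta2: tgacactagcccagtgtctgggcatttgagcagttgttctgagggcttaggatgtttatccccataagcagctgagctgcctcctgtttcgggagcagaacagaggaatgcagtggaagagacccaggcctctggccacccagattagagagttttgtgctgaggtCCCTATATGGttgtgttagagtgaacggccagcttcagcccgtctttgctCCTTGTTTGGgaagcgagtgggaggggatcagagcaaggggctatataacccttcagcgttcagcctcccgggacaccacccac

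Both smooth muscle actins were already high without TGF-β1. Actg2 rose in KO-labelled cells at 10 h, and the change of Acta2 was small on its brightest probe set but larger on dimmer ones. Acta2 encodes α-smooth muscle actin, the standard marker of myofibroblasts. In KO-labelled embryos 1, 2 and 3 its brightest probe set read 13.95, 13.99 and 13.98 untreated, 13.94, 14.05 and 14.00 at 1 h, and 14.12, 14.18 and 14.15 at 10 h. Wild-type embryos 1, 2 and 3 had 14.00, 13.97 and 13.92 untreated, 14.04, 13.96 and 13.98 at 1 h, and 14.15, 13.89 and 14.08 at 10 h. The KO-labelled 10 h arrays all lay above the untreated ones, whereas wild-type embryo 2 had its lowest value at 10 h, below every untreated wild-type array. The log2 change at 10 h was 0.18 ± 0.07 in KO-labelled cells (95% interval 0.02 to 0.34, adjusted p = 0.0764) and 0.08 ± 0.07 in wild-type cells (−0.08 to 0.23, adjusted p = 0.459). The highest value on any array for any probe set was 14.47, so this probe set was read close to the top of the scale, and the KO change passed with the mean of the Acta2 probe sets (0.79, adjusted p = 0.0238), with limma-trend (0.0303) and with embryo as a random block (0.0455); whether that compressed its change was not tested.

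The dimmer probe sets of Acta2 gave larger values. With the first of them the KO-labelled embryos 1, 2 and 3 stood at 6.85, 6.73 and 6.21 untreated, 6.78, 7.32 and 6.72 at 1 h, and 7.77, 8.10 and 7.84 at 10 h. The wild-type embryos stood at 6.42, 6.76 and 6.28 untreated, 6.90, 6.55 and 6.41 at 1 h, and 8.01, 5.45 and 7.48 at 10 h. At 10 h the 3 KO-labelled cultures and wild-type embryos 1 and 3 were above all untreated cultures, and wild-type embryo 2 was below all of them. Over all probe sets, the log2 change at 10 h was 1.31 ± 0.44 in KO-labelled cells (adjusted p = 0.0359) and 0.50 ± 0.44 in wild-type cells (adjusted p = 0.432). Without wild-type embryo 2, a comparison added after these values were seen, the wild-type change was 1.40 (adjusted p = 0.00302). Leaving out any KO-labelled embryo, or wild-type embryo 3, ended the call in KO-labelled cells (adjusted p of 0.0571 to 0.200).

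The second dimmer Acta2 probe set was 5.40, 5.40 and 5.25 untreated, 6.00, 7.04 and 6.46 at 1 h, and 6.12, 6.41 and 6.18 at 10 h in KO-labelled embryos 1, 2 and 3. It was 5.20, 5.53 and 5.01 untreated, 6.41, 6.14 and 5.86 at 1 h, and 6.15, 4.85 and 5.90 at 10 h in the wild-type embryos. Every 1 h array lay above all untreated arrays of its genotype, and wild-type embryo 2 was again the low array at 10 h. The 1 h change of 1.15 ± 0.29 in KO-labelled cells (adjusted p = 0.185) and 0.89 ± 0.29 in wild-type cells (adjusted p = 0.450) did not pass over all probe sets. At 10 h the change was 0.89 ± 0.29 in KO-labelled cells (adjusted p = 0.0306; 0.0785 to 0.151 without any 1 of the KO-labelled embryos) and 0.39 ± 0.29 in wild-type cells (adjusted p = 0.344; 0.92 and 0.0289 without wild-type embryo 2). The 3 Acta2 probe sets thus differ in size of change and at 1 h, and which transcripts each one reads was not examined here.

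Actg2 encodes γ-smooth muscle actin, mainly known from gut smooth muscle. It stood at 10.74, 11.03 and 11.12 untreated, 10.76, 11.13 and 11.07 at 1 h, and 11.26, 11.66 and 11.64 at 10 h in KO-labelled embryos 1, 2 and 3. On the wild-type arrays it was 11.04, 10.99 and 10.68 untreated, 11.10, 10.85 and 10.82 at 1 h, and 11.45, 10.92 and 11.48 at 10 h. As for Acta2, wild-type embryo 2 did not share the higher 10 h level of the other 5 cultures. Actg2 rose in KO-labelled cells by 0.56 ± 0.17 (adjusted p = 0.0172), a call lost without KO-labelled embryo 2 or 3 (adjusted p = 0.0935 and 0.0764). The wild-type change of 0.38 ± 0.17 did not pass (adjusted p = 0.0946); it was 0.61 without wild-type embryo 2 (adjusted p = 0.0304), and passed with embryo as a block (adjusted p = 0.0279). Actin coding sequences are near-identical between genes, so how far these probe sets read other actins is uncertain.

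Read from the brightest probe sets, Cnn1 and Tagln2 of the calponin and transgelin family held the largest rises of the members in both genotypes. Of 7 tested genes of calponins, transgelins, caldesmon and smoothelin, 5 rose in KO-labelled and 5 in wild-type cells. The shares of all tested genes that rose were 13.9% and 14.9%. Cnn1 encodes calponin 1, which binds actin and slows its myosin-driven sliding. In KO-labelled embryos 1, 2 and 3 its level was 10.72, 10.81 and 10.74 untreated, 10.62, 10.97 and 10.77 at 1 h, and 11.96, 11.82 and 12.25 at 10 h. Its wild-type levels were 10.87, 10.37 and 10.72 untreated, 10.95, 10.07 and 10.70 at 1 h, and 12.33, 12.40 and 11.37 at 10 h. The 10 h arrays were above all others in both genotypes, with wild-type embryo 3 showing the smallest step. The log2 change was 1.25 ± 0.25 in KO-labelled cells (2.38-fold, adjusted p = 9.9e-04) and 1.38 ± 0.25 in wild-type cells (2.60-fold, adjusted p = 5.0e-04).

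Wild-type embryo 2, low at 10 h for both smooth muscle actins, had the highest wild-type 10 h level of Cnn1. Tagln encodes transgelin, also called SM22α, an early smooth muscle protein that binds actin. Tagln read 13.44, 13.49 and 13.48 untreated, 13.39, 13.58 and 13.48 at 1 h, and 13.94, 13.93 and 13.92 at 10 h in KO-labelled embryos 1, 2 and 3. In wild-type embryos it was 13.44, 13.38 and 13.35 untreated, 13.48, 13.34 and 13.40 at 1 h, and 13.81, 13.95 and 13.84 at 10 h. The 10 h groups stood clear of the others, and again wild-type embryo 2 was the highest wild-type array. Tagln rose by 0.46 ± 0.07 in KO-labelled cells (adjusted p = 1.4e-04) and by 0.48 ± 0.07 in wild-type cells (adjusted p = 1.3e-04). It has no second probe set here, so the effect of its place near the top of the scale was not tested.

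Tagln2 encodes transgelin 2, which is found in many cell types. It stood at 9.84, 9.73 and 9.91 untreated, 9.94, 9.98 and 9.88 at 1 h, and 10.97, 11.02 and 11.20 at 10 h in KO-labelled embryos 1, 2 and 3. Wild-type cultures of embryos 1 to 3 read 9.81, 10.07 and 9.65 untreated, 9.95, 10.20 and 9.93 at 1 h, and 10.88, 10.90 and 11.21 at 10 h. No 10 h array overlapped with the earlier ones. The log2 change was 1.24 ± 0.12 in KO-labelled cells (2.36-fold, adjusted p = 1.45e-06) and 1.15 ± 0.12 in wild-type cells (2.22-fold, adjusted p = 3.0e-06).

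Smtn encodes smoothelin, a marker of contractile smooth muscle that lies along actin filaments. Smtn was 8.50, 8.25 and 8.72 untreated, 8.46, 8.40 and 8.73 at 1 h, and 9.41, 9.47 and 9.64 at 10 h in KO-labelled embryos 1, 2 and 3. It was 8.21, 8.19 and 8.22 untreated, 8.30, 8.06 and 8.33 at 1 h, and 9.14, 9.65 and 8.96 at 10 h in the wild-type embryos. Both 10 h groups were above their untreated groups by about the same amount, with log2 changes of 1.02 ± 0.16 in KO-labelled cells (adjusted p = 1.3e-04) and 1.04 ± 0.16 in wild-type cells (adjusted p = 1.2e-04). Untreated and at 1 h the 3 KO-labelled arrays also lay above the 3 wild-type arrays, by 0.28 ± 0.16 and 0.30 ± 0.16, and neither difference passed (adjusted p = 1.00 and 0.836). Cnn3, the non-muscle calponin, rose by 0.30 ± 0.08 in KO-labelled cells and 0.28 ± 0.08 in wild-type cells (adjusted p = 0.00718 and 0.0114), calls lost without KO-labelled embryo 1 (adjusted p = 0.0835) and without wild-type embryo 2 or 3 (0.0505 and 0.137), and in both genotypes with only the arrays compared (0.0709 and 0.0763). Cnn2 and Cald1, which encodes the actin-binding protein caldesmon, did not pass in either genotype on their brightest probe sets, with changes of 0.14 to 0.21. A dimmer Cald1 probe set rose by 0.30 ± 0.10 in KO-labelled cells and 0.38 ± 0.10 in wild-type cells (adjusted p = 0.0428 and 0.0113).

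**Figure D2:**
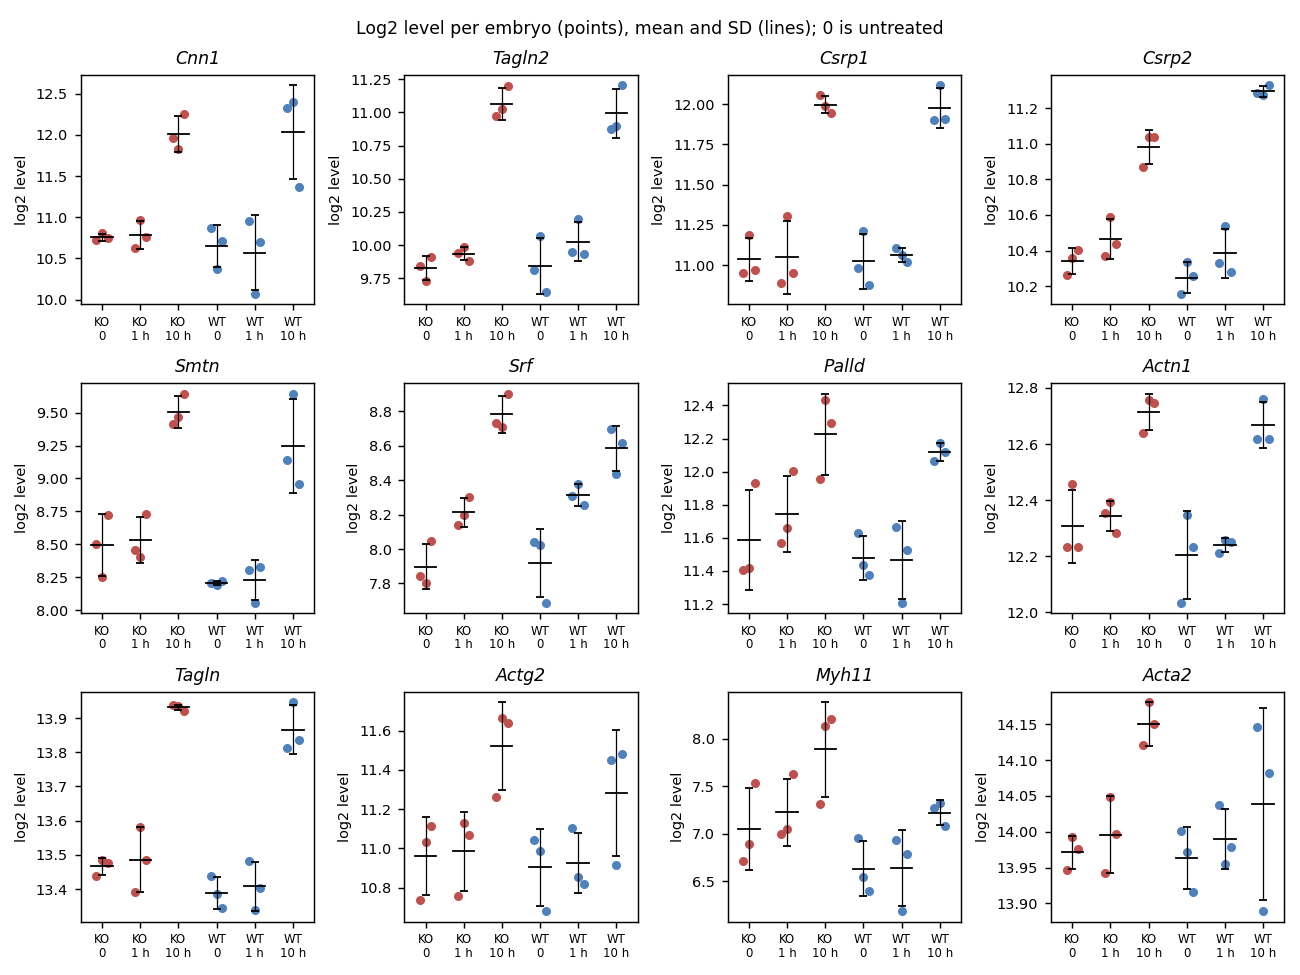
Log2 level (vertical axis, its range set per gene) of 12 genes in untreated (0), 1 h and 10 h cells, KO-labelled in red left of wild type in blue; points are embryos, horizontal lines are means and bars are SD (n = 3 embryos per group). Cnn1, Tagln2, Csrp1 and Smtn step up at 10 h in both genotypes, and wild-type embryo 2 is the low 10 h point of Actg2 and Acta2. On this probe set the 1 h points of Srf lie above the untreated ones, a step that did not pass in either genotype.

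Of 5 tested LIM-domain genes 3 rose in each genotype, where 13.9% of all tested genes rose in KO-labelled and 14.9% in wild-type cells. Csrp1 and Csrp2 encode cysteine-rich LIM proteins that sit on actin bundles, the second known from vascular smooth muscle. Csrp2 stood at 10.26, 10.36 and 10.40 untreated, 10.37, 10.59 and 10.44 at 1 h, and 10.87, 11.04 and 11.04 at 10 h in KO-labelled embryos 1, 2 and 3. In the wild-type embryos Csrp2 was 10.16, 10.33 and 10.26 untreated, 10.33, 10.54 and 10.28 at 1 h, and 11.28, 11.27 and 11.33 at 10 h. Csrp2 thus rose in both genotypes, and at 10 h every KO-labelled array lay below every wild-type array. The log2 change over untreated was 0.64 ± 0.09 in KO-labelled cells (1.56-fold, adjusted p = 5.0e-05) and 1.05 ± 0.09 in wild-type cells (2.07-fold, adjusted p = 5.6e-07). The KO minus WT difference at 10 h was −0.31 ± 0.09 (95% interval −0.50 to −0.12, adjusted p = 0.693), and the difference between the responses was −0.40 ± 0.13 (−0.67 to −0.13, adjusted p = 0.999). Neither passed over all tested genes.

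Csrp1 was 10.95, 11.19 and 10.97 untreated, 10.89, 11.31 and 10.95 at 1 h, and 12.05, 11.99 and 11.95 at 10 h in KO-labelled embryos 1, 2 and 3. It was 10.98, 11.21 and 10.88 untreated, 11.10, 11.06 and 11.02 at 1 h, and 11.90, 12.12 and 11.90 at 10 h in the wild-type embryos. The 10 h arrays of both genotypes overlapped and lay above all earlier arrays, with log2 changes of 0.96 ± 0.12 in KO-labelled cells (adjusted p = 1.4e-05) and 0.95 ± 0.12 in wild-type cells (adjusted p = 1.7e-05). Pdlim7, a PDZ and LIM protein of stress fibres also called enigma, rose by 0.40 ± 0.10 in KO-labelled cells (adjusted p = 0.00472) and 0.42 ± 0.10 in wild-type cells (adjusted p = 0.00321). Fhl2, a LIM-only cofactor, did not pass, at 0.21 and 0.28. Pdlim5 did not pass on its brightest probe set, at 0.17 in KO-labelled and 0.01 in wild-type cells.

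Of 8 tested crosslinking proteins 5 rose in each genotype, where 13.9% of all tested genes rose in KO-labelled and 14.9% in wild-type cells. Actn1 encodes α-actinin 1, which ties actin filaments together in stress fibres. Actn1 stood at 12.23, 12.46 and 12.23 untreated, 12.35, 12.39 and 12.28 at 1 h, and 12.64, 12.76 and 12.75 at 10 h in KO-labelled embryos 1, 2 and 3. The wild-type values were 12.04, 12.35 and 12.23 untreated, 12.21, 12.26 and 12.25 at 1 h, and 12.62, 12.76 and 12.62 at 10 h. The 10 h arrays were the highest in both genotypes, with changes of 0.41 ± 0.09 in KO-labelled cells (adjusted p = 0.00245) and 0.46 ± 0.09 in wild-type cells (adjusted p = 0.00102). Actn4, α-actinin 4, rose by 0.38 ± 0.09 and 0.35 ± 0.09 in KO-labelled and wild-type cells (adjusted p = 0.00425 and 0.00876), calls lost without embryo 2 of the genotype in question (0.0752 and 0.0692), and in wild-type cells with only the arrays compared (0.0751).

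Palld encodes palladin, a scaffold of actin bundles. Palld stood at 11.41, 11.42 and 11.93 untreated, 11.57, 11.66 and 12.002 at 1 h, and 11.96, 12.43 and 12.29 at 10 h in KO-labelled embryos 1, 2 and 3. Wild-type embryos 1, 2 and 3 had 11.63, 11.43 and 11.38 untreated, 11.66, 11.21 and 11.53 at 1 h, and 12.06, 12.17 and 12.12 at 10 h. The KO-labelled embryos were spread widely, with embryo 3 untreated almost as high as embryo 1 at 10 h. The change was 0.64 ± 0.16 in both KO-labelled and wild-type cells (adjusted p = 0.00654 and 0.00721). It was 0.45 without KO-labelled embryo 2 (adjusted p = 0.116) and 0.59 without wild-type embryo 2 or 3 (0.0507 and 0.0737). With the mean of the Palld probe sets it was 0.21 in each genotype and did not pass (adjusted p = 0.468 in KO-labelled and 0.441 in wild-type cells).

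Flnc encodes filamin C, known from muscle Z-discs. It was 9.15, 9.43 and 9.18 untreated, 9.19, 9.35 and 9.12 at 1 h, and 9.64, 9.59 and 9.63 at 10 h in KO-labelled embryos 1, 2 and 3. On the wild-type arrays it was 9.15, 9.55 and 9.32 untreated, 9.13, 8.85 and 9.29 at 1 h, and 9.72, 9.88 and 9.71 at 10 h. Each 10 h group lay above its earlier groups, by 0.37 ± 0.12 over untreated in KO-labelled cells (adjusted p = 0.0305) and 0.43 ± 0.12 in wild-type cells (adjusted p = 0.0135). These calls were lost without KO-labelled embryo 1 or 3 (adjusted p = 0.214 and 0.176) and without wild-type embryo 1 (0.106). Flna, the widespread filamin A, did not pass, at 0.21 and 0.10.

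Synpo2 encodes synaptopodin 2, or myopodin, an actin-bundling protein of muscle, and was read from a dim probe set. Its level was 5.02, 4.53 and 5.09 untreated, 5.36, 5.40 and 5.44 at 1 h, and 5.59, 5.97 and 5.63 at 10 h in KO-labelled embryos 1, 2 and 3. Its wild-type levels were 4.98, 4.82 and 4.85 untreated, 5.25, 5.06 and 5.29 at 1 h, and 5.60, 5.42 and 5.19 at 10 h. Every 1 h and 10 h array lay above the untreated arrays of its genotype. At 10 h the change was 0.85 ± 0.14 in KO-labelled cells (adjusted p = 2.8e-04) and 0.51 ± 0.14 in wild-type cells (adjusted p = 0.0118, but 0.0780 and 0.0828 without wild-type embryo 1 or 2). With the mean of the Synpo2 probe sets the wild-type change was 0.12 (adjusted p = 0.189), and a dimmer Synpo2 probe set fell by 0.52 ± 0.18 in wild-type cells (adjusted p = 0.0447). At 1 h it was 0.52 ± 0.14 (adjusted p = 0.266) and 0.31 ± 0.14 (adjusted p = 0.705).

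Synpo, the related synaptopodin gene, had its values on the other side. It was 9.86, 9.28 and 10.15 untreated, 9.94, 9.64 and 10.31 at 1 h, and 8.78, 9.57 and 9.15 at 10 h in KO-labelled embryos 1, 2 and 3. In wild-type embryos it was 9.93, 9.26 and 9.39 untreated, 9.95, 9.42 and 9.71 at 1 h, and 9.17, 8.66 and 9.04 at 10 h. KO-labelled embryo 2 was the one culture whose 10 h value exceeded its own untreated value. The change over untreated was −0.60 ± 0.26 in KO-labelled cells (adjusted p = 0.0853, or 0.0358 with embryo as a block) and −0.57 ± 0.26 in wild-type cells (adjusted p = 0.0978, or 0.0436 with the block). With embryo as a random block it passed in KO-labelled cells (0.0478) but not in wild-type cells (0.0571). Without KO-labelled embryo 2 it was −1.04 in KO-labelled cells (adjusted p = 0.00807) and the wild-type value passed too (0.0477). Lima1, the actin-bundling protein EPLIN, stood at −0.02 ± 0.12 in KO-labelled and −0.27 ± 0.12 in wild-type cells at 10 h (adjusted p = 0.925 and 0.101; in wild-type cells −0.41 and 0.0398 without wild-type embryo 2).

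Of 5 tested genes of myosin chains and their kinase, read from their brightest probe sets, 1 rose in KO-labelled cells (13.9% of all tested genes did) and 0 in wild-type cells (14.9% of all), so these counts lay near the background. Myh9, given further on, rose in both genotypes on dimmer probe sets. Myl9 encodes the regulatory light chain of smooth muscle myosin, the site that myosin light chain kinase phosphorylates. Myl9 stood at 12.60, 12.56 and 12.43 untreated, 12.54, 12.68 and 12.49 at 1 h, and 12.65, 12.88 and 12.86 at 10 h in KO-labelled embryos 1, 2 and 3. Wild-type cultures of embryos 1 to 3 read 12.55, 12.45 and 12.43 untreated, 12.56, 12.25 and 12.41 at 1 h, and 12.79, 12.48 and 12.55 at 10 h. The KO-labelled 10 h arrays lay above the untreated ones, and the wild-type groups overlapped. The change was 0.27 ± 0.10 in KO-labelled cells (adjusted p = 0.0560, or 0.0241 with embryo as a block, and 0.0398 and 0.0489 without wild-type embryo 1 or 2) and 0.12 ± 0.10 in wild-type cells (adjusted p = 0.381).

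Myh11, the smooth muscle myosin heavy chain, had the largest KO minus WT difference of the 37 genes at each time. It was 6.72, 6.89 and 7.53 untreated, 6.99, 7.05 and 7.63 at 1 h, and 7.31, 8.14 and 8.21 at 10 h in KO-labelled embryos 1, 2 and 3. The wild-type values were 6.95, 6.54 and 6.39 untreated, 6.93, 6.18 and 6.79 at 1 h, and 7.27, 7.32 and 7.08 at 10 h. Each embryo was higher at 10 h than untreated, while the KO-labelled groups overlapped, with embryo 3 high from the start. Myh11 rose in KO-labelled cells by 0.84 ± 0.27 (1.79-fold, adjusted p = 0.0241), a call lost without KO-labelled embryo 2 (0.64, adjusted p = 0.203). The wild-type change of 0.59 ± 0.27 did not pass (adjusted p = 0.102), but did with embryo as a block (0.0157) and with only the arrays compared (0.0330), a fit in which the KO call was lost (0.0674).

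The non-muscle heavy chain Myh10 was 12.19, 11.86 and 12.16 untreated, 12.26, 11.92 and 12.28 at 1 h, and 11.50, 11.60 and 11.64 at 10 h in KO-labelled embryos 1, 2 and 3. Wild-type embryos 1, 2 and 3 had 12.34, 11.66 and 12.004 untreated, 12.45, 11.77 and 12.15 at 1 h, and 11.77, 11.74 and 11.06 at 10 h. The KO-labelled 10 h arrays lay below all earlier ones, and the wild-type groups overlapped, with embryo 2 higher at 10 h than untreated. The change over untreated was −0.49 ± 0.21 in KO-labelled cells (adjusted p = 0.0828) and −0.48 ± 0.21 in wild-type cells (adjusted p = 0.0919), and it passed with embryo as a fixed block in both (0.0331 and 0.0387). With a random block it passed in KO-labelled cells (0.0453) but not in wild-type cells (0.0521). It also passed without wild-type embryo 2, at −0.49 in KO-labelled cells (adjusted p = 0.0445) and −0.76 in wild-type cells (0.0208), and in KO-labelled cells without wild-type embryo 1 (0.0497). Mylk, the myosin light chain kinase, and the brightest probe set of the non-muscle heavy chain Myh9 did not pass, with changes of −0.12 to 0.18.

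Tropomyosins lie along the actin filament and set which proteins can bind it. Of the 5 genes of tropomyosins and leiomodin, 3 rose in KO-labelled cells and 2 in wild-type cells. The shares of all tested genes that rose were 13.9% and 14.9%. Tpm1 stood at 13.28, 13.38 and 13.22 untreated, 13.29, 13.41 and 13.27 at 1 h, and 13.60, 13.69 and 13.54 at 10 h in KO-labelled embryos 1, 2 and 3. On the wild-type arrays it was 13.14, 13.35 and 13.23 untreated, 13.14, 13.17 and 13.30 at 1 h, and 13.44, 13.48 and 13.42 at 10 h. Both 10 h groups lay above the earlier ones. Tpm1 rose by 0.32 ± 0.08 in KO-labelled cells (adjusted p = 0.00615, but 0.0540 without KO-labelled embryo 1), and the 0.20 ± 0.08 in wild-type cells did not pass (adjusted p = 0.0631, or 0.0439 with embryo as a block). Tpm4 rose by 0.39 ± 0.09 and 0.36 ± 0.09 in KO-labelled and wild-type cells, and Tpm3 by 0.35 ± 0.07 and 0.26 ± 0.07, the wild-type call of Tpm3 being lost without wild-type embryo 3 (adjusted p = 0.0970) and with the mean of its probe sets (0.0600). With only the arrays compared the wild-type calls of Tpm4 (0.0793) and Tpm3 (0.0893) were lost. Tpm2 and Lmod1, which encodes the actin nucleator leiomodin 1, did not pass, at −0.04 to 0.24.

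Among intermediate filament genes, Des encodes desmin, a muscle protein. Des was 6.34, 6.42 and 6.81 untreated, 6.30, 6.11 and 6.33 at 1 h, and 6.67, 6.70 and 6.99 at 10 h in KO-labelled embryos 1, 2 and 3. Its wild-type levels were 6.56, 6.25 and 6.54 untreated, 6.57, 6.31 and 6.70 at 1 h, and 7.01, 7.03 and 6.57 at 10 h. The wild-type 10 h arrays lay just above the untreated ones, and the KO-labelled groups overlapped. Des rose by 0.42 ± 0.16 in wild-type cells (adjusted p = 0.0457), a call lost without KO-labelled embryo 1 or 2 and without wild-type embryo 1 or 2 (0.0600 to 0.345), with no filter on dim probe sets (0.0533) and with only the arrays compared (0.0905); in KO-labelled cells the change was 0.26 ± 0.16 (adjusted p = 0.216). Vim, the vimentin of all mesenchymal cells, lay between 13.65 and 13.91 on every array and differed by 0.02 ± 0.09 and 0.00 ± 0.09 in KO-labelled and wild-type cells. Its dimmer probe sets, at 12.71 to 13.05, differed by −0.10 to −0.02 and none passed.

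Rock1, a protein kinase, and Ppp1r12a, the targeting subunit of myosin phosphatase, control myosin phosphorylation. Neither passed at 10 h, with Rock1 at 0.05 ± 0.16 in KO-labelled and −0.02 ± 0.16 in wild-type cells and Ppp1r12a at −0.29 ± 0.15 and −0.28 ± 0.15. Without KO-labelled embryo 2 Ppp1r12a stood at −0.46 in KO-labelled cells (adjusted p = 0.0498).

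**Figure D3:**
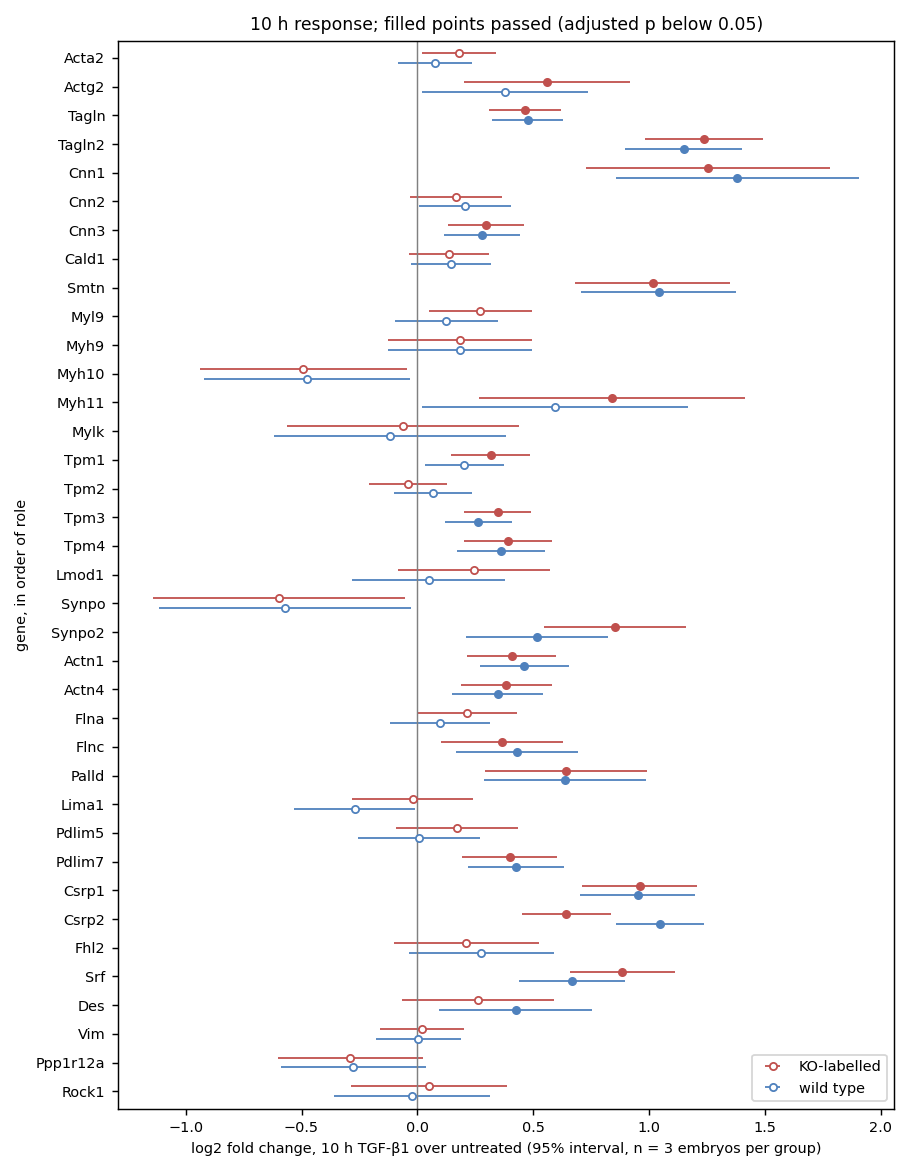
Log2 fold change of 10 h TGF-β1 over untreated cells (horizontal axis) with its 95% interval for the 37 tested genes, KO-labelled in red above wild type in blue (n = 3 embryos per group); filled points passed at adjusted p below 0.05. Filled points all lie right of 0, from Tpm3 to Cnn1 in wild-type cells, and the intervals of Synpo and Myh10 lie left of 0 without passing.

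After 1 h of TGF-β1, 0 of the 37 genes passed in KO-labelled cells, where 0.49% of all tested genes did, and 0 passed in wild-type cells, where 0.585% did (limma). At an unadjusted p under 0.05 there were 2 members in each genotype, Srf and Synpo2, among 512 genes in KO-labelled and 940 in wild-type cells. Both lay above their untreated groups without overlap in both genotypes, as described above. The median log2 change of the 37 genes was 0.04 in KO-labelled and 0.03 in wild-type cells. All 37 intervals of the 1 h change lay within 2-fold in either direction in both genotypes.

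Set against 1 h instead of untreated, the 10 h arrays again gave more members that rose than fell, and a few falls passed. In KO-labelled cells 18 genes rose and 3 fell, where 13.7% and 19.7% of all tested genes did. In wild-type cells 15 rose and 3 fell, where 15.3% and 18% of all did. The falls were Synpo by 0.80 ± 0.26, Myh10 by 0.57 ± 0.21 and Ppp1r12a by 0.45 ± 0.15 in KO-labelled cells (adjusted p = 0.0249, 0.0459 and 0.0279). In wild-type cells they were Synpo by 0.74 ± 0.26, Myh10 by 0.60 ± 0.21 and Lima1 by 0.41 ± 0.12 (adjusted p = 0.0358, 0.0372 and 0.0176). All 6 falls were lost with the mean of a gene's probe sets, where 18 genes rose and 0 fell in KO-labelled cells and 16 rose and 0 fell in wild-type cells. The falls also depended on single embryos: without KO-labelled embryo 1 or 3, 13 and 12 genes passed in KO-labelled cells and 0 of them fell. The shares of all tested genes were not counted in these alternative fits. In wild-type cells the fall of Synpo did not pass without any 1 of the wild-type embryos (adjusted p of 0.0973 to 0.128), and those of Lima1 (0.224 and 0.104) and Myh10 (0.0818 and 0.310) did not pass without wild-type embryo 1 or 3. The wild-type fall of Myh10 was also lost without KO-labelled embryo 1 or 3 (0.0600 and 0.0647).

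Between the genotypes no contractile gene passed. KO-labelled cells did not differ from wild-type cells in any of the 37 genes beyond the threshold when untreated, at 1 h or at 10 h, where 0% of all tested genes did. Nor did the change at 1 h or at 10 h differ between the genotypes for any of them, where again 0% of all did. At an unadjusted p under 0.05 there were 0, 1 and 3 members in untreated, 1 h and 10 h cells, among 460, 846 and 721 genes, and 0 and 1 for the differences of response, among 233 and 305 genes. The members were Myh11 at 1 h, Myh11, Synpo2 and Csrp2 at 10 h, and Csrp2 for the 10 h response. Averaged over the 3 conditions of each embryo, 0 members passed and 3 had an unadjusted p under 0.05, among 659 of all genes, with a smallest adjusted p of 0.968 for the members. The median KO minus WT difference of the embryo means was 0.04. The 14 macrophage and leukocyte markers had median KO minus WT differences of −0.58 untreated, −0.60 at 1 h and −0.49 at 10 h. Of the 14, 0 passed, and the medians over all tested genes were 0.002, −0.005 and −0.022. The part of cell make-up in the genotype comparisons was not tested.

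The intervals show how far the genotypes could differ. When untreated, all 37 intervals of the KO minus WT difference lay within 2-fold, and at 1 h and at 10 h 36 of 37 did, the exception being Myh11. Myh11 stood 0.59 ± 0.27 higher in KO-labelled cells at 1 h (95% interval 0.01 to 1.16, adjusted p = 0.803) and 0.66 ± 0.27 higher at 10 h (0.09 to 1.24, adjusted p = 0.923). For Acta2 the KO minus WT difference at 10 h was 0.11 (−0.05 to 0.27), for Tagln 0.07 (−0.09 to 0.22) and for Cnn1 −0.02 (−0.55 to 0.50). Synpo2 was 0.33 ± 0.14 higher in KO-labelled cells at 10 h (0.03 to 0.64, adjusted p = 0.923), with overlapping groups. The widest interval of a KO minus WT difference extended 0.57 to each side, and the median 0.25, which is what 3 arrays per group allow.

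For several genes the probe sets of the same gene differed in the size of the response. In all, 96 probe sets of the 37 genes were tested among 24691 probe sets with 1 symbol. Of these, 40 rose in KO-labelled cells, where 12.9% of all probe sets rose, and 33 in wild-type cells, where 13.1% did. In KO-labelled cells 0 fell, where 15.7% of all did, and in wild-type cells 1 fell, a dim probe set of Synpo2, where 15% of all did. More than 1 probe set was tested for 23 genes. In 17 of these in KO-labelled cells and 16 in wild-type cells, the highest change among dimmer ones exceeded that of the brightest. A gene with more dimmer probe sets had more chances to be counted, and the same count was not made over all genes. No link between brightness and change can therefore be read from these counts. Acta2, Cald1 and Myh9 passed in KO-labelled cells, and Cald1 and Myh9 in wild-type cells, through a dimmer probe set alone.

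Myh9 is the clearest case outside Acta2. Its brightest probe set differed by 0.18 in both KO-labelled and wild-type cells and did not pass. A probe set averaging 10.45 rose by 0.74 ± 0.12 and 0.75 ± 0.12 (adjusted p = 2.7e-04 and 2.6e-04), and another averaging 8.90 by 0.74 ± 0.14 and 0.62 ± 0.14 (adjusted p = 9.98e-04 and 0.00418). The other dimmer Myh9 probe sets differed by 0.11 and 0.18 in KO-labelled cells, without a pass, and by 0.17 and 0.45 in wild-type cells, where the second passed (adjusted p = 0.0305). For Pdlim5, 5 dimmer probe sets stood 0.71 to 0.99 higher in KO-labelled cells and 0.49 to 0.84 higher in wild-type cells, and a sixth stood 0.42 and 0.19 higher; none of the 6 passed. The 14 members whose brightest probe set averaged 12 or more had a median change of 0.24 in KO-labelled and 0.19 in wild-type cells, and the 23 dimmer members had 0.38 and 0.42; whether the array scale is the cause was not tested.

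**Figure D4:**
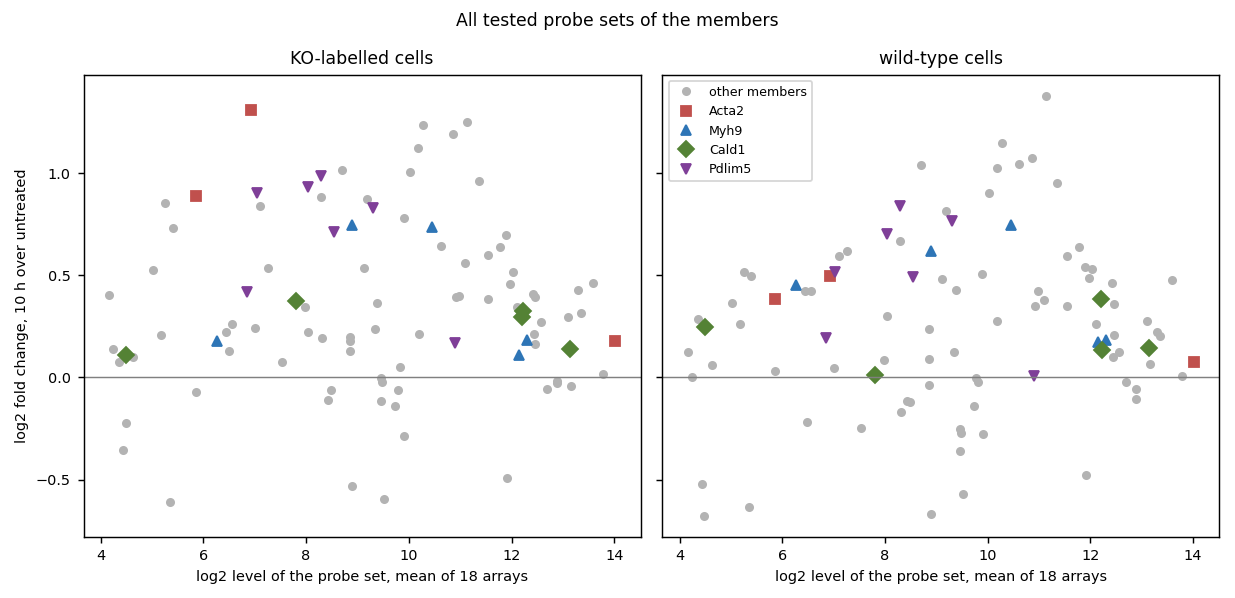
Log2 change of 10 h TGF-β1 over untreated (vertical axis) against the mean log2 level over the 18 arrays (horizontal axis) for all 96 tested probe sets of the members, KO-labelled cells left and wild-type cells right, with 4 genes marked by colour and shape. All dimmer probe sets of Acta2 and Pdlim5, and part of those of Myh9, lie above their brightest ones in both genotypes.

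Other genes of the same pathway passed in both directions. Of 15 tested SRF cofactors and further SRF targets, 7 rose and 1 fell in KO-labelled cells (13.9% and 20.7% of all tested genes did), and 5 rose and 1 fell in wild-type cells (14.9% and 18.8% of all), with medians of 0.21 and 0.19. Vcl, the focal adhesion protein vinculin, rose by 0.53 ± 0.09 in KO-labelled and 0.43 ± 0.09 in wild-type cells, and Fhl1, a LIM-only protein of muscle, by 0.57 ± 0.15 in each. Mrtfb, a myocardin-related SRF cofactor, fell by 0.53 ± 0.08 in KO-labelled and 0.28 ± 0.08 in wild-type cells, while its relative Mrtfa stood at −0.01 and −0.04 and did not pass.

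Of 22 tested genes of actin turnover, 5 rose and 2 fell in KO-labelled cells (13.9% and 20.7% of all tested genes did) and 3 rose and 2 fell in wild-type cells (14.9% and 18.8% of all), with medians of 0.02 and 0.03, so the shares that rose lay near those of all genes. Coro1c, a coronin that helps recycle branched actin, rose by 0.73 ± 0.12 in KO-labelled and 0.55 ± 0.12 in wild-type cells, and Pfn2, a profilin, fell by 0.92 ± 0.10 and 0.83 ± 0.10.

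Single markers of other cell types also passed at 10 h, in lists whose counts are to be read against the 13.9% and 20.7% of all tested genes that rose and fell in KO-labelled cells and the 14.9% and 18.8% in wild-type cells. Of 11 tested striated muscle markers, 2 rose and 0 fell in KO-labelled cells, and 4 rose and 1 fell in wild-type cells. Acta1, skeletal α-actin, rose by 1.98 ± 0.29 in KO-labelled and 2.07 ± 0.29 in wild-type cells, and Tnnt2, cardiac troponin T, by 1.19 ± 0.29 and 1.73 ± 0.29. The median log2 change of the 11 tested markers was 0.13 in KO-labelled and 0.17 in wild-type cells. The summed linear level of the 21 striated markers was 1820 to 2551 at 10 h against 850 to 1082 untreated in KO-labelled cells. In wild-type cells it was 1826 to 2464 against 887 to 959. Acta1 reached 11.03 and the next highest marker, Mef2c, 7.90, so this linear sum gives Acta1 the most weight at 10 h. Myod1, Myf5 and Myf6, which define the skeletal muscle lineage, lay above the 40th percentile on 0 arrays, and 9 of the 21 markers did so in all.

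Of 10 tested pericyte and vascular smooth muscle markers outside the members, 2 rose and 2 fell in KO-labelled cells, and 3 rose and 0 fell in wild-type cells. Cspg4, the NG2 proteoglycan, rose by 2.52 ± 0.15 in KO-labelled and 2.60 ± 0.15 in wild-type cells, and Mcam, the adhesion molecule CD146, by 1.59 ± 0.14 and 1.56 ± 0.14. These are the 2 that rose in KO-labelled cells, and the 2 that fell there are not named here. The median log2 change of the 10 markers was 0.08 in KO-labelled and 0.18 in wild-type cells. The 11 markers of this list with a probe set summed to 2315 to 2530 at 10 h against 1054 to 1503 untreated in KO-labelled cells. In wild-type cells they summed to 1971 to 2652 against 961 to 1107. Cspg4 reached 10.60 and the next highest marker, Mcam, 8.94, so this linear sum gives Cspg4 the most weight at 10 h. Higd1b was above the 40th percentile on 0 arrays. Markers of cells that are not contractile passed as well. Of 7 tested neural and glial markers, 1 rose and 1 fell in KO-labelled cells and 1 rose and 2 fell in wild-type cells, and the 8 markers summed to 1802 to 2054 at 10 h against 871 to 989 untreated in KO-labelled cells, and to 1676 to 2039 against 950 to 966 in wild-type cells. Nes, the intermediate filament protein nestin, was the one that rose, by 1.87 ± 0.11 in KO-labelled and 1.79 ± 0.11 in wild-type cells. It reached 10.69 and the next highest neural marker, Stmn2, 8.15, so the neural sum gives Nes the most weight at 10 h. The median log2 change of the 7 neural and glial markers was −0.02 in KO-labelled and 0.22 in wild-type cells. Of 7 tested epithelial markers 3 rose and 0 fell in each genotype, and the 9 markers summed to 393 to 472 at 10 h against 319 to 328 untreated in KO-labelled cells, and to 369 to 488 against 268 to 338 in wild-type cells.

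Of the 12 fibroblast markers 0 rose and 3 fell in KO-labelled cells, with a median change of −0.17, and 0 rose and 4 fell in wild-type cells, with a median of −0.31. Pdgfra, a receptor for platelet-derived growth factor, fell by 2.57 ± 0.29 in KO-labelled and 2.48 ± 0.29 in wild-type cells, while Col1a2 stood at −0.01 and 0.00. The part of any of these cell types in the rise of the contractile genes was not tested.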

How the data were processed

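Affymetrix arrays of total RNA from fibroblasts of 3 KO-labelled and 3 wild-type mouse embryos were used, 18 in all. The deposited values are log2 levels, 1 per probe set; per the submitters' processing notes RMA was used, in a version not given in the sources. That the scale is log2 was read from the values, which ran from 2.49 to 14.47. No further normalization was applied.

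Of 45101 probe sets, 34958 had a single symbol in the array annotation, 932 had several and 9211 none there. The brightest single-symbol probe set stood for each of 18194 genes, and the 13679 above the 40th percentile on 3 or more arrays were tested. Group means of the 6 groups were fitted with limma 3.58.1 (R 4.3.3) to all arrays, leaving 12 residual degrees of freedom, with empirical Bayes moderation. The two-sided p values were Benjamini-Hochberg adjusted across the tested genes, and the threshold was 0.05. Dimmer probe sets come from the same model fitted to 24691 probe sets. Errors are SE of the fit, and the number of arrays limits the precision.

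Acta2, Actg2, Tagln, Cnn1, Myl9, Tpm1, Srf, Myocd and Des are given whatever their test, with the 8 largest other rises in wild-type cells at 10 h that passed without overlap. From each further list of the pathway, up to 4 genes per direction could be named; 1 list is not reported here. Synpo, Myh10, Myh11, Lima1, the markers and other members given values, and Mrtfa, were chosen after their values were seen. The members and lists were chosen with earlier results of these data known. Per the labels, the same number within a genotype marks 1 embryo. Deviations of untreated and 1 h arrays of an embryo correlated at 0.592 to 0.763, and of untreated and 10 h arrays at 0.388, 0.344 and 0.282 in KO-labelled embryos 1 to 3 and 0.487, −0.06 and −0.20 in wild-type embryos 1 to 3. Arrays of the same number but other genotype, thus of different embryos, correlated at 0.346, 0.541 and 0.073 untreated for numbers 1 to 3. At 1 h these values were 0.472, 0.487 and 0.104, and at 10 h 0.135, −0.198 and −0.024. What links such arrays was not tested.

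Alternatives changed the filter, normalization, probe set, moderation, arrays fitted or embryo block, or left out each embryo. The fit was checked on simulated data. Promoters come from RefSeq (GRCm38.p6).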

Additional observations from a re-analysis of the deposited data

How the results depend on the processing

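The main counts of genes past the threshold at 10 h over untreated, 19 in KO-labelled and 17 in wild-type cells, ranged from 16 to 21 and from 14 to 17 when each embryo was left out. They were 21 and 15 with the mean of a gene's probe sets, and 18 and 13 with only the arrays compared. The share of all tested genes that passed was not counted in these alternatives, nor in any alternative for 10 h over 1 h. A change in such counts is therefore not read as particular to the members. With the replicate block (embryo fixed) 22 genes passed in each genotype, and with embryo as a random block 23 and 20. Under the block no call was lost at 10 h over untreated; those gained are given beside the genes. For 10 h over 1 h the counts of 21 and 18 became 22 and 22 under the block, which added Myh11 in KO-labelled cells and Actg2, Myh11, Srf and Ppp1r12a (lower) in wild-type cells, and ranged from 12 to 21 in KO-labelled and from 12 to 17 in wild-type cells when an embryo was left out. At 1 h 1 gene, Synpo2 (0.32, adjusted p = 0.0488), passed in KO-labelled cells with the mean of its probe sets. All comparisons of the genotypes gave 0 in every alternative run. In the replicate block fit, those at a given time used the array number as the block, which joins different embryos of the genotypes.

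With the mean of a gene's probe sets, Palld at 10 h over 1 h turned to −0.16 in KO-labelled cells (adjusted p = 0.596) and −0.015 in wild-type cells (0.967), and Myh9 in wild-type cells turned to 0.38 (7.2e-04); the cause was not tested. The same setting ended the call of Palld at 10 h over untreated in both genotypes (0.21 in each) and of Synpo2 in wild-type cells (0.12, adjusted p = 0.189). Past the threshold in the main fit and in all 14 alternatives were Tagln, Tagln2, Cnn1, Smtn, Actn1, Pdlim7, Csrp1, Csrp2 and Srf in both genotypes, and also Tpm3, Tpm4 and Synpo2 in KO-labelled cells. The median of all genes moved by less than 0.1 in every alternative.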

Other observations

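Wild-type embryo 2 after 10 h stood apart for the actins: it was the lowest 10 h culture of the 6 for Acta2 (13.89), for Actg2 (10.92) and for both dimmer Acta2 probe sets (5.45 and 4.85). The same culture was the highest wild-type 10 h array for Cnn1 (12.40), Tagln (13.95), Smtn (9.65), Actn1 (12.76), Flnc (9.88) and Csrp1 (12.12). These values were picked after they were seen, and no cause was tested.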
